A study of Homo sapiens with 8 samples.

Results

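The subject is HCT116 cells that received no knockdown, as read in the 2 control groups of the series, control siRNA and no Dox. The libraries were chosen by their labels, and 4 of 8 libraries belong to a control group, 2 in each. HCT116 is an established human colorectal carcinoma line of epithelial origin, and every library of the series came from HCT116 cells with a stable Tet-On shRNA against UBA2, the catalytic subunit of the SUMO E1 enzyme, which the labels call SAE2. The series holds knockdowns of UBA2 and of the transcription factor TFAP2C, each with its own control. Cells of the first group carried a control siRNA for 48 hrs. The no Dox cells received DMSO for 5 days, against 1 μg/mL of Dox in the libraries labelled UBA2 KD. Both control groups grew in DMEM with FBS approved for Tet systems, and mRNA libraries were made with the same kit. Nothing in the labels says that replicates were separate cultures, so the p-values measure only the spread between these libraries, which may be technical.

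The control groups were counted in 2 tables with different gene annotations, the TFAP2C table for control siRNA and the UBA2 table for no Dox. A difference between the groups therefore holds transfection, DMSO, time in culture, sequencing batch and annotation at once, and these cannot be told apart. Levels are given as CPM, which are counts scaled to the same library total, and genes are compared with each other only as CPM per kb of the gene length that the table lists. Between the groups, CPM per kb also holds the difference in listed length, so directions are read from CPM. Differences are the log2 of control siRNA over no Dox in CPM, with the standard error (SE) of edgeR's quasi-likelihood fit.

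The colon epithelium renews itself from stem cells that depend on Wnt signalling, and its cells mature into absorptive colonocytes, mucus-secreting goblet cells and hormone-secreting enteroendocrine cells. HCT116 is known as a poorly differentiated line with stabilised β-catenin and defective mismatch repair. Type I interferon acts through a complex with STAT2 and IRF9, which binds the interferon-stimulated response element (ISRE) of target genes. Many genes of the G2 and M phases carry a cell cycle genes homology region (CHR) near the start site, through which they are repressed outside those phases.

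The control siRNA libraries held 24018869 and 20785035 counts over 42125 genes, and the no Dox libraries held 18632770 and 20607813 counts over 23393 genes. The tables shared 21257 symbols, with 87.6% to 87.7% of the control siRNA counts and 97.3% of the no Dox counts. Replicates differed by more than sampling noise, with a chi-square per gene of 2.75 and 2.69, and the biological coefficient of variation over the 4 libraries was 3.30%. A floor of 3 counts came to 0.142 to 0.165 CPM. TFAP2C was lower in the TFAP2C KD libraries (3.87 and 4.90 CPM on shared symbols) than in control siRNA (21.8 and 23.4). In the libraries labelled UBA2 KD, however, UBA2 stood at 149 and 156 CPM, against 167 and 152 in no Dox, so their ranges overlapped.

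Of the shared symbols, 12220 reached 1 CPM on average in control siRNA, 11999 did so in no Dox, and 11643 in both. A further 6813 were at or under the floor in all 4 libraries. Genes at 1 CPM in one group and at the floor in the other numbered 99 for control siRNA and 163 for no Dox.

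Among symbols in both tables, the most abundant transcripts per kb were those of the cytoskeleton, glycolysis and translation. Mitochondrial transcripts, which only the TFAP2C table lists, were not ranked. In control siRNA, MT-ND4 alone had 17547 and 17450 CPM of the whole table. Thymosin TMSB10 led in control siRNA (2370 and 2457 CPM per kb), followed by the elongation factor EEF2 (1571 and 1682) and the glycolytic enzyme GAPDH (1435 and 1473). The actin gene ACTG1 led in no Dox (2634 and 2744), followed by TMSB10 (1893 and 1982) and GAPDH (1794 and 1786). ACTG1, TMSB10, GAPDH, RPL8 and EEF2 stood among the 10 highest in both groups. The ferritin light chain FTL, EZR, HMGA1 and S100A6 were also among them in control siRNA, and ACTB, RPS6, HSP90AB1, HSP90AA1 and RPL11 in no Dox.

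Both groups expressed an epithelial programme, and the label held against most of its markers, which did not move together between the groups. Of 20 epithelial genes, 19 had enough counts to be tested. In CPM, 4 were at least 2-fold higher in control siRNA and 1 lower (21.1% and 5.26%, against 15.9% and 10.5% of all genes). Their log2 differences ran from -6.93 to 3.07. The median of -0.11 lay between -0.16 and 0.63 under the alternatives. The keratin KRT19 reached 556 and 578 CPM per kb in control siRNA and 111 and 105 in no Dox. KRT8 stood at 139 and 143 and at 468 and 463, although its difference in CPM was only -0.11 ± 0.04, and its partner KRT18 at 163 and 173 and at 322 and 328 (-0.27 ± 0.05 in CPM). The adhesion protein EPCAM had 85.0 and 86.2 CPM per kb in control siRNA and 214 and 227 in no Dox. These values also hold the listed length and give no direction between the groups. E-cadherin, CDH1, had 22.8 and 23.0, and 17.6 and 19.1. The cadherin CDH17 alone was at the floor in both groups. Thus the line was epithelial in both. Per kb, KRT19 stood above KRT8 in control siRNA and below it in no Dox, but this order also depends on the length that each table lists.

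**Figure D1:**
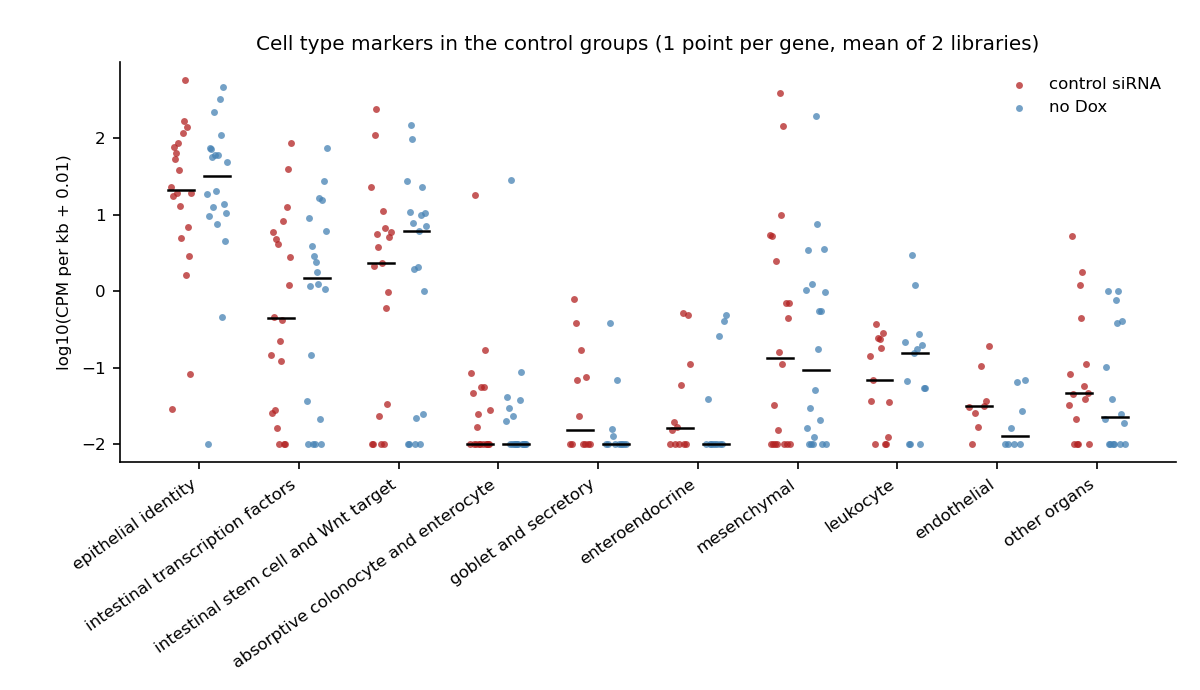
Mean level of each marker gene on a log axis of CPM per kb, by list, where each point is a gene, colour gives the group and the black bar is the median of the list. Epithelial genes were high in both groups, whereas most genes of mature colon cells lay at the bottom of the axis and CA2 stood alone above them.

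Markers of mature colon cells were mostly not detectable at this depth. Of 19 genes of absorptive colonocytes and enterocytes in both tables, 16 were at or under the floor in both groups, among them FABP1, CA1, SLC26A3 and SI. The exception was the carbonic anhydrase CA2, at 18.6 and 17.6 CPM per kb in control siRNA and 29.6 and 26.9 in no Dox. Among 12 goblet cell genes, 8 were at the floor in both groups, including TFF3, AGR2 and ZG16. The mucin MUC2 had 102 and 86 counts in control siRNA, against 0 and 2 in no Dox. Of 12 enteroendocrine genes, 9 were at the floor in both groups, including CHGA and INSM1.

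Of the transcription factors of the intestine, SOX9, which marks progenitors, was highest (82.0 and 90.2 CPM per kb in control siRNA, 78.0 and 71.9 in no Dox). KLF5 followed with 38.7 and 40.2, and 27.3 and 26.7. The colon determinant CDX2 stood at 5.97 and 5.81 in control siRNA and at 8.58 and 9.53 in no Dox. In CPM it lay the other way (24.6 and 23.9, against 20.1 and 22.4, difference 0.19 ± 0.09, adjusted p = 0.0438), but that call was lost without control siRNA replicate 1 (0.17) or 2 (0.21), without no Dox replicate 1 (0.12), with DESeq2 or its size factors, without a filter on low counts and with all 8 libraries in one fit. With the lengths as an offset its sign turned (-0.17). CDX1, GATA4, ISX and HOXD13 were at the floor in both groups. The nuclear receptor HNF4A was low throughout, at 0.132 and 0.0951 CPM per kb in control siRNA and at 1.49 and 1.99 in no Dox. In CPM, HNF4A was lower in control siRNA by a log2 difference of -3.50 ± 0.22 (SE, n = 2 per group) and it overlapped another listed gene on its strand in both tables.

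Of 19 genes of intestinal stem cells and Wnt targets, 6 were at the floor in both groups, among them the stem cell markers LGR5, ASCL2 and OLFM4. The Wnt inhibitor DKK1 was abundant (241 and 237 CPM per kb in control siRNA, 96.5 and 96.7 in no Dox), as was CD44 (108 and 108, and 145 and 148). In CPM, CD44 was slightly higher in control siRNA (1079 and 1076, against 968 and 986), by 0.14 ± 0.04. That call was lost without no Dox replicate 1 (0.13) and with the lengths as an offset (0.0075). AXIN2, a feedback target of β-catenin, had 2.42 and 1.85 CPM per kb in control siRNA and 10.2 and 11.2 in no Dox. RNF43, the ubiquitin ligase that removes Wnt receptors, had 0.660 and 0.513, against 22 and 23.6. Wnt feedback genes thus did not move together, because the secreted inhibitor NOTUM was higher in control siRNA (33.6 and 31.2 CPM) than in no Dox (13.6 and 12.9), whereas AXIN2 and RNF43 were lower. NOTUM overlapped no other gene on its strand in either table. RNF43 overlapped another gene on its strand in the TFAP2C table, and AXIN2 in both.

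Of 20 mesenchymal genes, 8 were at the floor in both groups, including CDH2, ZEB2, COL1A2 and DCN, and 10 were tested. Of these 6 were at least 2-fold higher in control siRNA and 1 lower, with a median log2 difference of 1.39, where 15.9% and 10.5% of all genes tested were so. Of the 4 that overlapped no other gene on their strand in either table, 1 was 2-fold higher and 1 lower, with a median of 0.51. The calcium-binding protein S100A4 had 385 and 380 CPM per kb in control siRNA and 182 and 209 in no Dox. SPARC, a matrix protein, had 141 and 145 CPM per kb in control siRNA, against 0.431 and 0.631 in no Dox. Its log2 difference of 8.42 ± 0.09 was the largest of any lineage gene here, and SPARC overlaps another gene on its strand in the TFAP2C table. The intermediate filament VIM, low in both, was the one that was 2-fold lower (2.20 and 2.24 CPM in control siRNA, 7.21 and 7.75 in no Dox).

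Markers of other cell types were at or near 0. Summed over 13 leukocyte genes, levels were 2.99 to 3.39 CPM in control siRNA and 7.84 to 9.29 in no Dox, and the defining genes CD3E and MS4A1 had 0 counts in all 4 libraries. Summed over 8 endothelial genes, levels were 2.94 to 3.11 CPM in control siRNA and 0.924 to 1.03 in no Dox, with CLDN5 at 0. Of 16 genes of other organs, 8 were at the floor in both groups, among them TTR, MLANA, MYOD1 and INS, whereas the muscle gene DES had 12.8 and 12.8 CPM in control siRNA and 2.35 and 2.16 in no Dox. Those lists rest on 1 to 5 tested genes each.

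The 15 tested colorectal cancer drivers and the 10 mismatch repair genes were expressed in both groups. CTNNB1, which encodes β-catenin, had 37.4 and 35.7 CPM per kb in control siRNA and 122 and 120 in no Dox, while in CPM it was lower in control siRNA by a log2 difference of only -0.45 ± 0.04 (439 and 419, against 591 and 582). MYC had 121 and 129 CPM per kb in control siRNA and 176 and 172 in no Dox. In CPM it was higher in control siRNA (555 and 591, against 471 and 461, difference 0.30 ± 0.05, adjusted p = 4.22e-07), and the sign turned with the lengths as an offset (-0.024). PIK3CA and APC were detected at 3.11 to 9.40 CPM per kb in the 4 libraries. The mismatch repair gene MSH6 had 9.33 and 9.10 CPM per kb in control siRNA and 39.7 and 38.0 in no Dox, whereas MSH3, another repair gene, lay at 0.782 to 1.60. These values per kb also hold the difference in listed length, and in CPM EXO1 alone of the 10 repair genes was past 2-fold.

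The genes the study targeted also differed between its controls. TFAP2C had 21.1 and 22.8 CPM in control siRNA and 8.35 and 8.37 in no Dox, a log2 difference of 1.39 ± 0.10 (adjusted p = 4.36e-14, edgeR's quasi-likelihood test). This is a gene whose length is alike in both tables and which overlaps no other gene. Its relative TFAP2A was likewise higher (68.2 and 68.3, against 32.8 and 28.8 CPM), whereas TFAP2B and TFAP2D had 0 counts in every library. UBA2 was lower in control siRNA (111 and 109 CPM, against 173 and 157). For its partner SAE1 no difference was called (298 and 305, against 322 and 314; difference -0.08 ± 0.05, adjusted p = 0.123). The deacetylase HDAC1 had 337 and 333 CPM in control siRNA and 287 and 296 in no Dox, and HDAC2 had 227 and 217 against 275 and 276. For HDAC2 the log2 difference of -0.31 became 0.20 with the trend with GC content removed. Unlike TFAP2C, UBA2 overlapped another gene in the UBA2 table, and HDAC1 and HDAC2 did so in the TFAP2C table. Listed lengths of UBA2 and HDAC2 were 1.60 and 2.22 times as long in the TFAP2C table.

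Over all genes the replicates of a group were much closer to each other than the groups were. On the scale log2(CPM per kb + 1) over 13030 tested genes, Pearson's r was 0.998 within each group and 0.869 to 0.875 between groups. The SD of the log2 difference was 0.102 and 0.118 between replicates, against 0.935 to 0.958 between libraries of different groups. These correlations are across genes, which are not independent replicates, and they share the library and the gene lengths of its table.

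**Figure D2:**
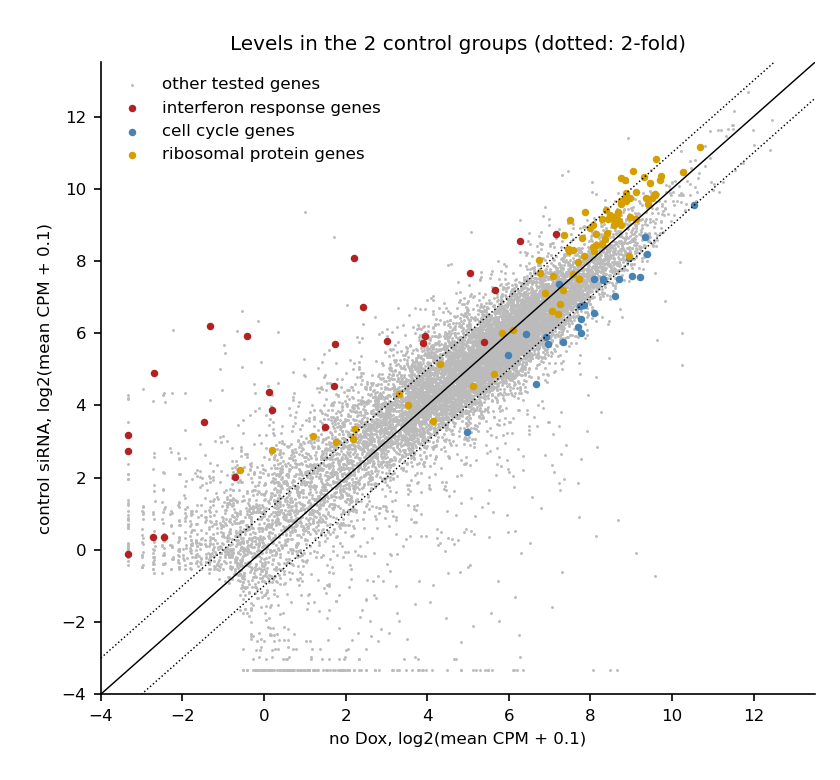
Mean CPM per gene on log2 axes, control siRNA against no Dox, where each point is a tested gene, the solid line marks equal levels and the dotted lines 2-fold. Interferon response genes lay above the diagonal and most cell cycle genes below it, among 2076 genes at least 2-fold higher and 1370 lower.

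Most tested genes differed between the control groups. Of 13030 genes, 10633 (81.6%) passed an adjusted p of 0.05, 5322 higher (40.8%) and 5311 lower (40.8%) in control siRNA, and in 90.3% (11765) the groups did not overlap. With a difference of at least 2-fold as well, 2076 genes (15.9%) were higher and 1370 (10.5%) lower, and these shares are the background for the gene groups described next. Among 3559 genes whose lengths in the tables lay within 10% of each other, 80.1% passed the test and 982 (27.6%) also differed 2-fold. Of the genes with other lengths, 26% differed 2-fold, and of 1521 genes whose span overlapped no other gene in either table, 351 (23.1%) did, 238 higher and 113 lower. With as many genes called as here, a call alone separates little, and size was used below.

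Interferon response genes were higher in control siRNA as a group. All 25 were tested and higher in control siRNA, 24 of them at least 2-fold (96.0%, against 15.9% of all genes), and 0 were lower. The median log2 difference was 3.77, or 3.76 with genes of 0 counts set at the floor, against -0.0019 over all genes. The list includes sensors, antiviral effectors and the factors that transmit the signal, and these are described in turn. Of the 11 with no same-strand overlap in either table, 10 were 2-fold higher with a median of 3.77, and of the 7 of like length 6 were.

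The signalling genes ranged widely. STAT2 had 151 and 143 CPM in control siRNA and 49.8 and 52.0 in no Dox, so both groups expressed it. The transcription factor IRF7, itself induced by interferon, had 50.4 and 53.9 CPM against 3.26 and 3.18 (difference 4.01 ± 0.11, adjusted p = 1.35e-26). Its span overlaps no other gene in either table. IRF9 had 9.38 and 8.54 CPM in control siRNA and 0 counts in both no Dox libraries, and was thus at least 56.9-fold higher relative to the floor of 3 counts per library. IRF9 overlaps other genes on its strand in both tables, and how their shared reads were assigned was not tested.

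Antiviral effectors and sensors were higher as well. ISG15, a ubiquitin-like protein, had 198 and 209 CPM in control siRNA and 32.2 and 34.1 in no Dox (difference 2.62 ± 0.06, adjusted p = 1.69e-28). IFIT1, which binds viral RNA, had 110 and 100 against 5.78 and 4.77 (4.33 ± 0.09, adjusted p = 1.05e-29). IFI6 had 266 and 273 against 4.40 and 4.67 (5.89 ± 0.08), and IFI27 had 59.5 and 60.9 against 0.686 and 0.616 (6.52 ± 0.14). BST2, the tetherin that retains virions at the cell surface, had 74.4 and 72.6 CPM against 0.400 and 0.205. In every one of these genes the lowest control siRNA library lay above the highest no Dox library. The groups did not overlap in 90.3% of all tested genes either. The RNA sensor OAS3 had 374 and 374 against 80.4 and 73.6. IFIT5 was the single member under 2-fold (55.3 and 53.1, against 42.7 and 40.5 CPM).

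**Figure D3:**
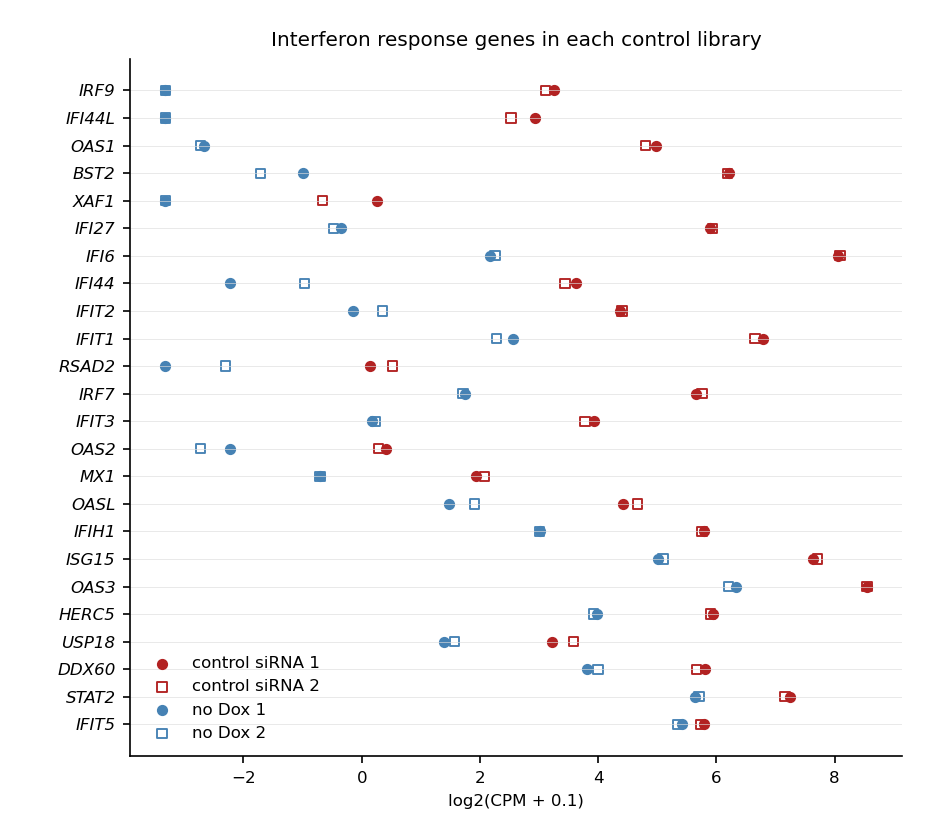
Level of 24 of the 25 interferon response genes in each control library on a log2 axis of CPM, where filled circles are replicate 1, open squares replicate 2 and colour gives the group. Each gene's control siRNA points lay to the right of its no Dox points, with the smallest gap for IFIT5.

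Promoters of the interferon genes are shown because the members moved together. They are given for 5 of the genes described above whose window, the 250 bases before the start site, holds the letters of the element. Sequences are from RefSeq (GRCh38.p14), given on the gene's strand, and capitals mark the letters GAAANNGAA or their reverse TTCNNTTTC, overlapping matches included.
ISG15, chr1:1013344-1013444, plus strand: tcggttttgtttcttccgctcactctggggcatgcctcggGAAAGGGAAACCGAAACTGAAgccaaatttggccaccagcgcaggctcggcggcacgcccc
IFIT1, chr10:89392468-89392569, plus strand: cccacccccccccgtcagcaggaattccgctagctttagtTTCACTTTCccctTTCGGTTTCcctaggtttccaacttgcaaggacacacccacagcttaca
IFI6, chr1:27672237-27672388, minus strand: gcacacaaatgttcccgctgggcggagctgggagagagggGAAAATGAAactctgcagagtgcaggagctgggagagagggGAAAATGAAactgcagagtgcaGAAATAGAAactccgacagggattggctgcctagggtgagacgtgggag
IFI27, chr14:94110589-94110689, plus strand: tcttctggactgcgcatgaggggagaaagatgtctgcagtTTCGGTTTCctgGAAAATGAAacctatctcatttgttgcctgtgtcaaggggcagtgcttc
BST2, chr19:17405706-17405800, minus strand: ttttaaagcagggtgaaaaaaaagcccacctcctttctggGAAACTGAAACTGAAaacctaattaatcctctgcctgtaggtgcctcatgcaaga

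These letters were found in the promoters of 14 of 19 interferon genes that matched the RefSeq table by symbol (73.7%). They occur in 7.06% of all 27305 promoters and in 5.05% of the 10242 promoters of tested genes. ISG15 and IFI6 had 3 matches each, and IFIT1, IFI27 and BST2 had 2. No match was found for IRF9, MX1, OAS1, STAT2 and XAF1, which says only that these letters are not in that window. Such a match is a description of the sequence, not a binding site.

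The other 4 libraries gave a similar separation for these genes. Scaled over all 8 libraries, the summed level of the 25 genes was 2160 and 2116 CPM in control siRNA and 2065 and 2101 in TFAP2C KD, against 395 and 392 in no Dox and 362 and 370 in the libraries labelled UBA2 KD. Thus the summed level differed between the tables. A sum does not show single members, and an effect of the knockdowns on these genes was not tested. In the libraries labelled UBA2 KD, the CPM of UBA2 itself overlapped that of no Dox. TFAP2C KD cells had been transfected too, so transfection, batch and annotation cannot be told apart here.

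Cell cycle genes lay the other way. Of 25 tested genes 24 were lower in control siRNA, 16 of them at least 2-fold (64.0%, against 10.5% of all genes), with a median log2 difference of -1.18. The mitotic cyclin CCNB1 had 135 and 126 CPM in control siRNA and 382 and 398 in no Dox (difference -1.58 ± 0.05, adjusted p = 1.61e-24). CCNA2, the cyclin of S and G2 phases, had 66.9 and 61.2 against 221 and 215, and the kinesin CENPE 27.6 and 20.7 against 105 and 98.4. The proliferation marker MKI67 was abundant in both groups (770 and 741, against 1520 and 1452 CPM). MCM7, a subunit of the replicative helicase, had 414 and 402 against 654 and 644. The licensing factor CDT1 was the single member higher in control siRNA (155 and 175, against 152 and 150 CPM). Its difference of 0.13 ± 0.05 no longer passed the test with DESeq2, without a filter on low counts, with all 8 libraries in one fit, without control siRNA replicate 2 (0.034) or without no Dox replicate 2 (0.11). In bulk RNA, fewer cells in a phase and less RNA per cell cannot be told apart.

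The mitotic genes PLK1, a kinase, and KIF11, a kinesin, are shown with MKI67 as members whose promoters hold the CHR letters TTTGAA or their reverse TTCAAA, in capitals.
PLK1, chr16:23678820-23678888, plus strand: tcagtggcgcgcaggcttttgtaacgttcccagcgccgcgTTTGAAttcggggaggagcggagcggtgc
KIF11, chr10:92593062-92593129, plus strand: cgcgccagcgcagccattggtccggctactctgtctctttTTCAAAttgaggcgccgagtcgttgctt
MKI67, chr10:128126424-128126510, minus strand: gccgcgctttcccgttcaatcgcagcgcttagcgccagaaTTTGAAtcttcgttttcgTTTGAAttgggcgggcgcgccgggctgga

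PLK1 had 113 and 109 CPM in control siRNA and 236 and 227 in no Dox, and KIF11 had 56.4 and 51 against 159 and 164. The CHR letters stood in 7 of 21 matched cell cycle promoters (33.3%), against 13.6% of all promoters and 8.11% of those of tested genes. Genes without a match included CCNB1, CCNA2, CENPE, MCM7 and CDT1, described above. In PLK1 the match began 29 bases before the start site and in KIF11 28 bases before it. For MKI67 the distances were 47 and 29 bases, for BUB1B 23 and for CCNB2 29. They were larger in CDK1 (161) and TOP2A (194 and 151).

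The genes CDKN1A, GDF15, BBC3 and TIGAR were chosen after their values were seen, from a list of 24 tested genes. Of that list, 17 were higher and 5 lower by the test (40.8% each over all genes). At least 2-fold were 8 and 2 (33.3% and 8.33%, against 15.9% and 10.5% of all genes). The cell cycle inhibitor CDKN1A had 495 and 526 CPM in control siRNA and 132 and 121 in no Dox (difference 2.01 ± 0.05, adjusted p = 3.1e-27). The stress cytokine GDF15 had 516 and 615 against 77.2 and 77.1 (2.87 ± 0.06), and the pro-apoptotic BBC3 64.5 and 74.7 against 12 and 14.5. TIGAR had 0 counts in both control siRNA libraries and 44.2 and 45.6 CPM in no Dox, and it overlaps another gene on its strand in the TFAP2C table.

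Heat shock genes were mostly lower in control siRNA, 15 of 17 by the test, against 40.8% of all genes. At least 2-fold lower were 5 (29.4%, against 10.5% of all genes), and the median was -0.85. The chaperone HSP90AA1 had 2226 and 2057 CPM in control siRNA and 5375 and 5507 in no Dox (difference -1.34 ± 0.05), and HSPA8 had 1524 and 1427 against 3010 and 2975. The small heat shock protein HSPB1 lay the other way, with 470 and 496 against 190 and 192. Of 10 mismatch repair genes 8 were lower by the test, but EXO1 alone was past 2-fold, a share near that of all genes (10.5%). Their median of -0.78 was -0.51 with the trend with GC content removed and -0.035 in genes of like length.

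Hypoxia and glycolysis genes were split. Of 23 tested, 8 were at least 2-fold higher (34.8%, against 15.9% of all genes) and 2 lower (8.70%, against 10.5%). The median of 0.65 turned to -0.11 when the lengths of the tables entered the fit as an offset. The glucose transporter SLC2A1 had 98.3 and 105 CPM in control siRNA against 423 and 420, whereas its relative SLC2A3 had 21.6 and 26.3 against 4.18 and 5.08. The aldolase ALDOA had 30.7 and 38.1 CPM in control siRNA and 1208 and 1203 in no Dox, while ALDOC had 175 and 188 against 35.2 and 43.3. ALDOA overlaps other genes on its strand in both tables. The glycolytic genes GAPDH and ENO1 differed by less than 1.5 times between the groups.

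The 24 sterol genes had a median near that of all genes (0.01). Of these, 3 were 2-fold higher and 3 lower (12.5% each, against 15.9% and 10.5% of all genes). CYP51A1 (10.8 and 10.5, against 149 and 151 CPM) and SQLE (42.3 and 40.1, against 133 and 127) were among those lower in control siRNA, and the sterol reductase TM7SF2 (59.7 and 61.3, against 20.7 and 21.3) was higher. Of 23 stress response genes of the ATF4 pathway, 9 were higher and 11 lower by the test (40.8% each over all genes). Of these, 4 and 3 were at least 2-fold (15.9% and 10.5% over all genes). The list median of -0.41 was -0.17 without control siRNA replicate 1, -0.24 without control siRNA replicate 2 and -0.23 with the trend with GC content removed. ATF4 itself had 254 and 282 CPM against 232 and 244, DDIT4, which restrains mTOR signalling, 549 and 666 against 115 and 114, and asparagine synthetase ASNS 12.3 and 15.5 against 304 and 312. CYP51A1, TM7SF2 and ASNS overlap other genes on their strand in both tables. Among 24 immediate early genes 15 were higher and 6 lower by the test (40.8% each over all genes). At least 2-fold were 4 and 2 (16.7% and 8.33%, against 15.9% and 10.5% of all genes). The phosphatase DUSP4 (935 and 986, against 257 and 268) and the AP-1 subunit FOSB (7.0 and 7.74, against 23.6 and 28.4) were the extremes.

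Ribosomal protein genes had a median of 0.61, but the direction depended on gene length. Of 78 tested, 17 were at least 2-fold higher (21.8%, against 15.9% of all genes) and 0 lower (against 10.5%). All 78 were longer in the TFAP2C table, and with the lengths as an offset the median was -0.43. No direction is therefore given for this family.

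**Figure D4:**
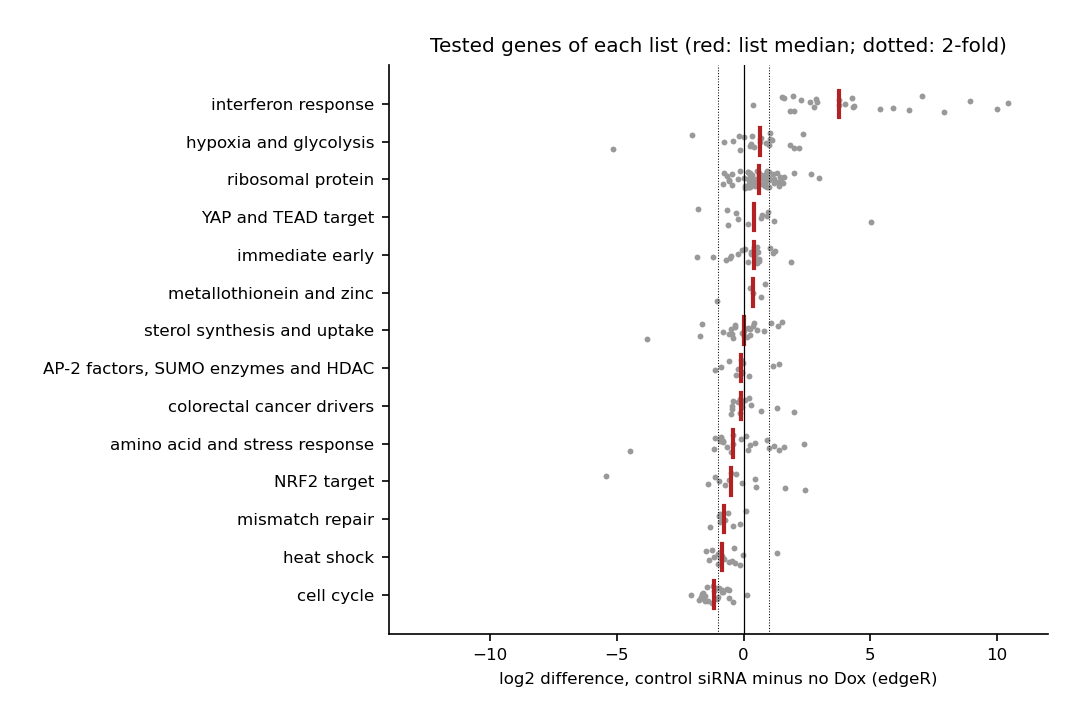
Log2 difference of control siRNA over no Dox for the tested genes of 14 lists, where grey points are genes, red bars the medians and dotted lines 2-fold. The interferon list lay at a median of 3.77 and the cell cycle list at -1.18, with the sterol list at 0.01 between them.

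The largest differences in the whole table were taken next, first among genes of like length. Of the 12 genes with the largest difference in each direction, all 12 lower ones had at most 3 counts in either control siRNA library, and 7 of 12 higher ones were at the floor in no Dox. In these 24, 23 spans overlapped another listed gene in at least one table, such as MIR3648-1 (0 and 0 CPM, against 78.0 and 69.4) and MYCBP (18.1 and 18.2, against 0 and 0). GSPT2 (0 and 0, against 5.78 and 7.29) was the one that overlapped none. Among genes whose lengths differ by 1.5 times or more, examples of the largest differences were LUZP6 (0 and 0, against 414 and 388), NDUFA9 (0 and 0, against 81.6 and 81.4) and JMJD7-PLA2G4B (11.9 and 11.2, against 0 and 0). How reads in shared sequence were assigned was not tested, and no fold is given for these examples.

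A rule added after these values were seen took genes with at least 10 counts in every control library and a span that overlaps no other gene in either table. Among the 1145 genes that met all of these conditions, and so were already called, the largest differences toward control siRNA were IFI27, AQP3, IRF7, RGS9 and CLIC3. The glycerol channel AQP3 had 110 and 112 CPM in control siRNA and 3.89 and 4.11 in no Dox (difference 4.78 ± 0.09). ARRDC4, an arrestin induced by glucose through MondoA, had 58.2 and 57.2 against 5.72 and 4.72, and SAT1, which acetylates polyamines, had 1473 and 1395 against 163 and 187. In the other direction stood U2AF1 (2.06 and 1.49, against 204 and 217), SIK1 (0.961 and 1.55, against 34.8 and 36.3) and PWP2 (5.72 and 6.57, against 155 and 156). These are genes of chromosome 21 with near-identical copies in GRCh38, and their counts are uncertain. Others in that direction included uridine phosphorylase UPP1 (4.67 and 5.66, against 30.3 and 31.0), the splicing regulator BCLAF1 (89.7 and 85.0, against 450 and 427) and SMAD7, the inhibitor of TGF-β signalling (2.84 and 4.32, against 13.8 and 13.3). All 24 genes that this rule named had the same sign in the other 4 libraries.

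The differences moved with properties of the genes. In 5 equal groups of genes ordered from low to high GC content, the median log2 difference was -0.48, -0.20, -0.0030, 0.23 and 0.50, and Spearman's rho with GC content was 0.387 over 12695 genes. By the ratio of the gene's length in the TFAP2C table to that in the UBA2 table, the median was -1.20 in 50 genes under 0.5, -0.24 in 491 genes at 0.5 to 0.91 and 0.58 in 407 genes over 4. The median over chromosomes ran from -0.33 (chromosome 13) to 0.33 (chromosome 19). Genes that overlap another on the same strand in both tables differed 2-fold in 34.5%, against 23.4% of those with no such overlap. After removal of the trend with GC content the interferon median was 3.87, that of cell cycle genes -1.07 and that of immediate early genes 0.04 in place of 0.40.

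**Figure D5:**
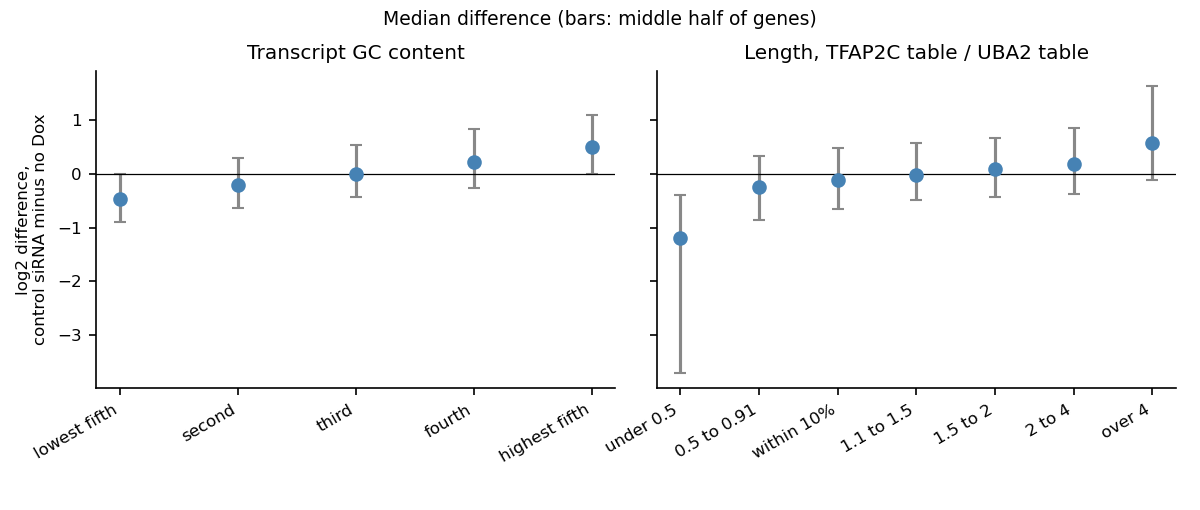
Median log2 difference of control siRNA over no Dox (points) with the quartiles (bars), by 5 groups of transcript GC content on the left and by the ratio of gene lengths in the tables on the right. The median rose from -0.48 to 0.50 over the groups of GC content, and it rose with the length ratio.

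Between the tables, the other 4 libraries showed much the same differences. When TFAP2C KD was set against the libraries labelled UBA2 KD, which share no library with the controls, Pearson's r of the log2 differences was 0.965 over 13030 genes, as a description across genes. Of 3446 genes that differed 2-fold between the controls, 3432 had the same sign there (99.6%) and 2992 were again 2-fold apart. Therefore most of what separates the controls also separated the knockdown libraries of the same tables.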

How the data were processed

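mRNA-seq counts of 4 control libraries were analysed, 2 of control siRNA and 2 of no Dox, and the other 4 libraries served only where named. TopHat2 and hg19, with HTSeq 0.9.1 for counting, are named in the submitters' processing notes, and the authors deposited whole-number read counts per gene that had not been normalized. The table with control siRNA lists positions of GRCh38 and Ensembl gene types, whereas that with no Dox lists hg19. The strand setting of the counting is not given in the sources used here, so overlapping or antisense genes cannot be told apart. All count columns belonged to a sample.

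The tables were joined by gene symbol, and only symbols in both were used. In R 4.3.3, genes were filtered by filterByExpr of edgeR 4.0.16, scaling was by TMM, and the groups were compared by the quasi-likelihood test, two-sided, with Benjamini-Hochberg adjustment over 13030 genes and a threshold of 0.05. Standard errors were taken from the log2 difference and its F statistic. With 2 libraries per group an exact test of a single gene cannot pass 0.05. CPM per kb used the length that each table lists. A gene was at the floor with at most 3 counts in each library of a group. The SE covers only counting error and the spread between these libraries. The fit was tested on simulated data. GC content was that of the longest GENCODE transcript of each symbol, and promoters came from RefSeq.

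Genes were named from 25 lists, by level (the 10 highest per kb in each group) and by size of difference (the 12 largest in each direction among genes of like length, the 5 largest where lengths differ by 1.5 times or more, in both cases above a mean log2 CPM of 1). Differences were ranked only among called genes whose groups did not overlap. One more rule, with these conditions kept, was added after values were seen. The members and lists were chosen with earlier results of these data known. Alternatives were DESeq2 1.42.0, other scaling and filters, gene lengths as an offset, genes of like length, each library left out, and a replicate block. Some genes of the lists are not reported here.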

Additional observations from a re-analysis of the deposited data

Results flagged for a closer look

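Counts on symbols that only one table lists lie outside the comparison. In control siRNA they took 12.3% of the counts in replicate 1 and 12.4% in replicate 2. In no Dox they took 2.66% and 2.67%. They were flagged because a signal appeared in data that no comparison uses. Most of it in control siRNA came from the 37 mitochondrial genes, which the UBA2 table does not list and which held 9.79% and 9.91% of the counts, with MT-ND4 (17547 and 17450 CPM of the whole table) and MT-RNR2 (16011 and 15923) as the highest. Of the symbols only in the UBA2 table, 490 are RefSeq synonyms of a symbol only in the TFAP2C table, such as ATP5B for ATP5F1B, and these held 70.6% and 70.1% of that table's unshared counts. They are the same genes under an older name and were not compared here.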

How the results depend on the processing

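The count of genes that differ (10633) lay within 1.5 times of itself under other scaling, filters and tests, for example 9573 with DESeq2, and between 10134 and 10206 with 1 library left out, where the lone library is assumed to vary like the other group. In a fit of genes of like length alone 2825 differed, 546 were 2-fold higher and 425 lower, and among spans that overlap no other gene, an alternative added after seeing the data, 1232 differed. Fewer genes were tested there. Scaled by library size without TMM, the median of all genes shifted to 0.092, and 2329 genes were 2-fold higher and 1170 lower. With gene length as an offset 1992 were lower in place of 1370.

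Replicate numbers are shared by label only. Differences between replicates 1 and 2 correlated at 0.0568 between the groups over genes, so the libraries were not treated as paired, and with a replicate block 10772 genes differed. The median r between the groups was 0.872, and it was 0.867 and 0.847 with pseudocounts of 0.5 and 0.1 and 0.936 without a filter. The range of chromosome medians was 0.657, and 0.852 in genes of like length.

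With length as an offset the log2 difference changed sign for CDX2 (-0.17), MT2A (-0.43), MYC (-0.024), RPL11 (-1.39), RPL8 (-0.23), RPS6 (-1.06) and SAE1 (0.084). With library size alone it did so for HMOX1 (0.049), PIK3CA (0.0022) and SAE1 (0.017), none of which passed the test. With 1 library left out, HMOX1 ranged from -0.087 to 0.0036 and PIK3CA from -0.19 to 0.0089. Over all alternatives, 1276 values of single named genes kept their direction and their side of the threshold, 21 no longer passed it and 1 newly did. Depth limits the genes at the floor, for which neither presence nor absence can be read.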

Other observations

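Small RNA genes gave the lowest values among gene types. Of 89 small nucleolar RNA genes tested, 86.5% were at least 2-fold lower in control siRNA, with a median log2 difference of -7.36, against a median of -0.0013 over 12529 protein-coding genes. These genes mostly lie within introns of other genes, and how the reads of their hosts were assigned in each table was not tested.

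Targets of NRF2, the regulator of the antioxidant response, had 2 of 13 genes at least 2-fold higher and 3 lower in control siRNA (median -0.48). These were 15.4% and 23.1%, against 15.9% and 10.5% of all genes. The glutamate-cysteine ligase subunit GCLM and the cystine transporter SLC7A11 were lower, with log2 differences of -1.42 ± 0.07 and -1.13 ± 0.06, whereas for haem oxygenase HMOX1 no difference was called (20.3 and 20.1 CPM, against 20.1 and 21.5). Among 12 targets of YAP and TEAD 7 were higher and 5 lower by the test (40.8% each over all genes). At least 2-fold were 2 and 1 (16.7% and 8.33%, against 15.9% and 10.5% of all genes). The median of the 12 was 0.43, and 0.27 with the trend with GC content removed. The metallothionein MT2A had 187 and 208 CPM in control siRNA and 163 and 169 in no Dox, and the sign of its list changed with gene length as an offset.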
